A study of Homo sapiens with 4 samples.

Results

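ALDH1A3 and 9 other genes of retinoid metabolism were followed in 2 nasopharyngeal carcinoma cell lines treated with caffeic acid phenethyl ester (CAPE). The 10 genes were named by function and cover the synthesis of retinaldehyde and retinoic acid, the reduction of retinaldehyde, the binding of retinoic acid and its receptors. ALDH1A3 was chosen by its CAPE minus DMSO difference in these same arrays, so the values under CAPE of all 10 genes are a description and were not tested. Of the 10, 9 had a probe set of their own among the 18323 genes of the arrays, and all 9 were among the 15194 kept by a filter on dim probe sets. RARA, a retinoic acid receptor gene, lay on a probe set that the annotation gives to a second gene as well and was not analysed here.

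The 4 groups were HK1EBV cells with CAPE, HK1EBV cells with DMSO, HK1 cells with CAPE and HK1 cells with DMSO, with 1 array each. CAPE, a phenolic ester of propolis, was given at 110 µM and dimethyl sulfoxide (DMSO), the control, at 0.1%, each for 24 h. Both lines are labelled as nasopharyngeal carcinoma cells. The name HK1EBV was read as HK1 with Epstein-Barr virus, on which the labels are silent. They also do not say whether the CAPE cultures also received DMSO, nor how many clones or cultures a line stands for.

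Retinoic acid is made from vitamin A. Retinol is first oxidised, reversibly, to retinaldehyde by short-chain dehydrogenases such as RDH10, and enzymes such as DHRS3 take retinaldehyde back to retinol. The retinaldehyde dehydrogenases ALDH1A1, ALDH1A2 and ALDH1A3 then oxidise it irreversibly to retinoic acid. CRABP2 carries retinoic acid to the nuclear receptors RARA, RARB and RARG, which bind DNA with retinoid X receptors and control genes of epithelial differentiation, and enzymes of the CYP26 family break it down. ALDH1A3 is the family member known for its high expression in many carcinomas and is a common source of the aldehyde dehydrogenase activity used to mark stem-like tumour cells.

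The promoters of ALDH1A3 and RARB are shown. The first belongs to the gene with the largest CAPE change among the 9 retinoid genes measured. The second holds the best known response element of retinoic acid receptors. Both come from RefSeq (GRCh38.p14) and run from 250 bases before to 50 bases after a transcription start, 5′ to 3′ on the gene's strand, which is the plus strand for both. Capitals mark GCGTG, on either strand, in ALDH1A3, and in RARB the DR5 element, a direct repeat of the half-site AGGTCA with 5 bases between the copies, in which G may stand for the first base and T for the third.
ALDH1A3, chr15:100879581-100879880: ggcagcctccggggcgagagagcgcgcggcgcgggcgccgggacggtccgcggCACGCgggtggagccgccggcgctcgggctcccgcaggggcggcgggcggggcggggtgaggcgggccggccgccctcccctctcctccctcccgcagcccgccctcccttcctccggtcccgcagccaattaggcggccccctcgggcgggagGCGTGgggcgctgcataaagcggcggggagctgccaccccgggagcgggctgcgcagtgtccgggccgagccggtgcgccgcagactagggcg
RARB, chr3:25428013-25428312: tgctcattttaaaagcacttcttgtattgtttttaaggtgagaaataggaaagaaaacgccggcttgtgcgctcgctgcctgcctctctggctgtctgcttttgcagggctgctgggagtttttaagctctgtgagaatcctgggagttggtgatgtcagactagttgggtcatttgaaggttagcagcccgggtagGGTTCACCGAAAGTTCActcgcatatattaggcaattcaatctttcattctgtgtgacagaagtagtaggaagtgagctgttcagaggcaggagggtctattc

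Of the 10 genes, 9 had 20 such windows in the RefSeq table. Each motif was searched on both strands. The DR5 element was in 1 of the 20, the RARB window above, where it began 53 bases before the start, and in 31 of all 35116 windows, or 0.0883%. The copy AGTTCA in the DR5 element of RARB is also a half-site match by itself. The half-site AGGTCA was in 3 of the 20 windows and in 13.8% of all, and AGTTCA in 4 of the 20 and in 10.4% of all. GCGTG, the core that the aryl hydrocarbon receptor is known to bind, was in 5 of the 20 windows and in 36.5% of all, and TGACNNNGC, the core of the antioxidant response element, in 4 of the 20 and in 13.3% of all. ALDH1A3 held GCGTG at 2 places, beginning 43 and 197 bases before the start, and none of the other letters searched. These matches are descriptions of the letters in the windows.

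The arrays were alike at large. Array medians were 2.23 to 2.27 (RMA, log2), and Pearson's r across all probe sets lay between 0.983 and 0.991. Values are log2 values of a probe set, which depend on its probes as well as on the RNA, so each gene is compared with itself across arrays, and a gene's place over or under the array median is given only as a mark of dim probe sets. All 7 epithelial markers measured lay over the median of all 4 arrays, as did the fibroblast marker COL1A1 and the leukocyte marker CD68. The log2 values of the 7 epithelial markers summed to 47.3 with CAPE and 49.0 with DMSO in HK1EBV, and to 47.3 and 46.5 in HK1. Single epithelial markers differed with CAPE by -0.79 to 0.25 in HK1EBV and by -0.47 to 0.78 in HK1. CDH1 was higher by 0.25 in HK1EBV and 0.78 in HK1, while KRT8 differed by -0.79 and -0.09, KRT19 by -0.48 and 0.10 and KRT18 by -0.45 and -0.06. EPCAM differed by 0.25 in HK1EBV and -0.47 in HK1, KRT14 by -0.27 and 0.46 and KRT5 by -0.22 and 0.05. The fibroblast markers COL1A1, COL1A2 and PDGFRB differed by 0.13, -0.07 and 0.36 in HK1EBV and by 0.08, 0.03 and 0.20 in HK1. The endothelial markers VWF and CDH5 differed by -0.12 and -0.13 in HK1EBV and by 0.19 and -0.01 in HK1, and DCN, LUM, PECAM1 and KDR were under the filter. Of the 4 leukocyte markers measured, PTPRC, CD3E and LYZ were under the filter and CD68, a lysosomal protein also found outside leukocytes, was higher with CAPE by 1.14 in HK1EBV and by 1.23 in HK1. The log2 values of these 4 summed to 10.7 with CAPE and 9.81 with DMSO in HK1EBV, and to 10.3 and 9.02 in HK1. The part of these markers in the results below was not tested. Fewer cells of a kind and less RNA per cell cannot be told apart in such samples.

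ALDH1A3, which oxidises retinaldehyde to retinoic acid, had log2 values of 5.65 with CAPE and 8.54 with DMSO in HK1EBV. In HK1 it had 5.64 with CAPE and 7.95 with DMSO. Both CAPE arrays lay below both DMSO arrays, and the CAPE arrays of the 2 lines nearly met. The share of all genes with the treatments apart in this way was not counted, here or below. The difference was -2.90 in HK1EBV, which is 7.44-fold lower with CAPE, and -2.31 in HK1, which is 4.97-fold lower. It was the lowest difference of all 15194 genes in HK1EBV and the fourth lowest in HK1, after CYP1B1, H1-1 and HMGCS1. No group had a replicate, so these differences had no replicate check. The 2 lines, the only repeat of the CAPE comparison, differed in the size of the change by -0.58 (HK1EBV minus HK1). Over all genes that difference between the lines had a median size of 0.19, and 959 genes had a larger one than ALDH1A3.

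**Figure D1:**
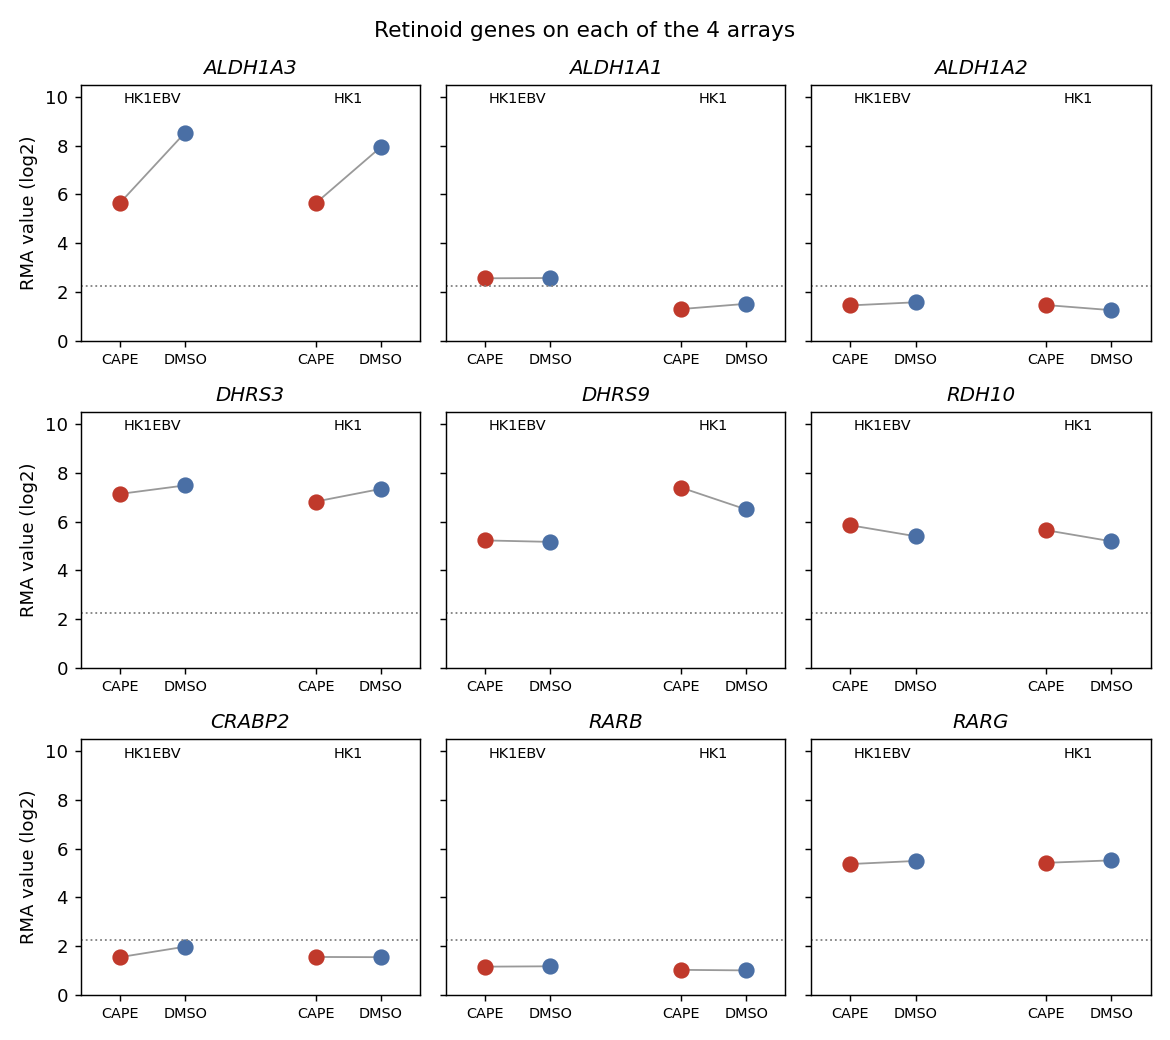
RMA values (log2) of the 9 measured retinoid genes on each of the 4 arrays, with CAPE in red and DMSO in blue, HK1EBV left and HK1 right in each panel, and the mean of the 4 array medians as a dotted line. ALDH1A3 stood at 5.65 and 5.64 with CAPE, against 8.54 and 7.95 with DMSO, and no other panel has a step of that size between treatments.

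The other 2 retinaldehyde dehydrogenases were dim. ALDH1A1, a form abundant in liver and used as a stem cell marker, had 2.56 with CAPE and 2.57 with DMSO in HK1EBV. It had 1.29 with CAPE and 1.51 with DMSO in HK1, where both arrays were under their median. Its CAPE differences were -0.01 in HK1EBV and -0.22 in HK1, so its arrays paired by line and not by treatment. ALDH1A2, the form known for retinoic acid synthesis in the embryo, had 1.44 with CAPE and 1.57 with DMSO in HK1EBV, and 1.46 and 1.25 in HK1. All 4 of its arrays were under their median, and its differences of -0.13 and 0.21 had opposite signs.

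Among the enzymes that turn retinol and retinaldehyde into each other, DHRS3 and RDH10 went opposite ways with CAPE, each with one sign in both lines. DHRS3, which reduces retinaldehyde to retinol and is known to be induced by retinoic acid, had 7.14 with CAPE and 7.49 with DMSO in HK1EBV. In HK1 it had 6.82 with CAPE and 7.34 with DMSO. Both CAPE arrays lay below both DMSO arrays, by -0.35 in HK1EBV and -0.52 in HK1. RDH10, which makes retinaldehyde from retinol, had 5.85 with CAPE and 5.40 with DMSO in HK1EBV, and 5.65 and 5.19 in HK1. Both CAPE arrays lay above both DMSO arrays, by 0.45 in HK1EBV and 0.46 in HK1. Against a median difference of 0.18 in size over all genes in either line, these are modest, and 989 genes in HK1 and 1096 in HK1EBV were at least as far up as RDH10, itself included.

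DHRS9, a short-chain dehydrogenase of retinol and steroids found in epithelia, had 5.23 with CAPE and 5.17 with DMSO in HK1EBV. In HK1 it had 7.40 with CAPE and 6.50 with DMSO. The HK1 CAPE array was the highest, and the 2 HK1EBV arrays lay close together below both HK1 arrays. CAPE differences were 0.06 in HK1EBV and 0.90 in HK1, so the change in HK1EBV was smaller by 0.84 (a difference of -0.84, HK1EBV minus HK1), and 254 genes had a change that differed more from line to line.

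The binding protein and the 2 receptors measured had CAPE differences between -0.43 and 0.02. CRABP2, which delivers retinoic acid to its receptors, had 1.55 with CAPE and 1.98 with DMSO in HK1EBV, and 1.56 and 1.55 in HK1. All were under their array median, and the HK1EBV CAPE and HK1 DMSO arrays held the very same value. RARB, a receptor gene known to be induced by retinoic acid through the DR5 element printed above, had 1.16 with CAPE and 1.17 with DMSO in HK1EBV, and 1.03 and 1.01 in HK1. These values were close to the filter of 0.997 on every array, so a fall could not be measured there. RARG, the main retinoic acid receptor of stratified epithelium, had 5.37 with CAPE and 5.50 with DMSO in HK1EBV, and 5.42 and 5.53 in HK1. Its arrays were over their median, and it differed with CAPE by -0.13 in HK1EBV and -0.10 in HK1.

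Of the 9 genes, 1 was at least 2-fold lower with CAPE, ALDH1A3, in both lines, and 0 were at least 2-fold higher in either. Of all 15194 genes, 0.533% were at least 2-fold lower in HK1EBV and 0.684% in HK1, and 0.204% in both. At least 2-fold higher were 0.691% in HK1EBV and 0.671% in HK1. Since ALDH1A3 was chosen for this contrast, nothing is read from its count. The median over the 9 genes was -0.13 in HK1EBV and 0.01 in HK1, beside 0.00 and 0.02 over all genes. The 8 genes other than ALDH1A3 differed by -0.43 to 0.45 in HK1EBV and by -0.52 to 0.90 in HK1.

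**Figure D2:**
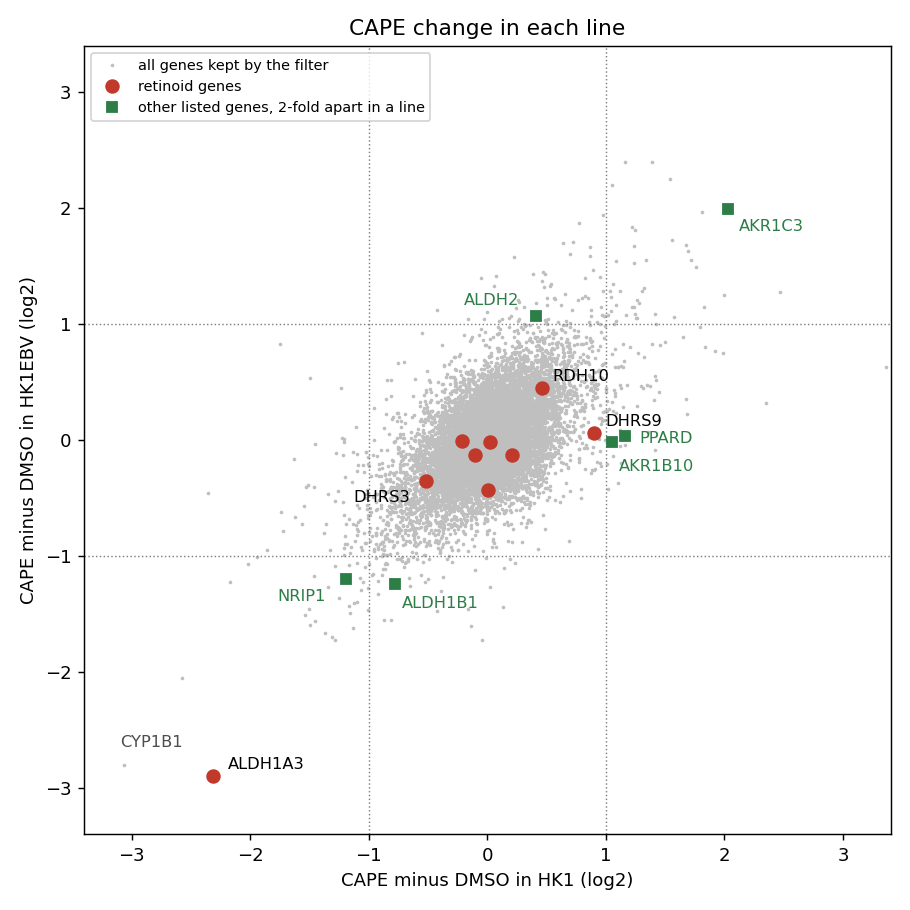
CAPE minus DMSO (log2) of every gene kept by the filter, in HK1 on the x axis and HK1EBV on the y axis, with dotted lines at 2-fold. Retinoid genes are red circles, and green squares are genes of the wider pathway lists (cell type markers not among them) that were 2-fold apart in at least 1 line. ALDH1A3 lies at the lower left, at -2.31 and -2.90, next to CYP1B1 and away from the other red circles.

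The next comparison asked how the same genes differed between the lines, with the 2 treatments as repeats. DHRS9 was lower in HK1EBV by -2.17 with CAPE and -1.33 with DMSO. Its mean difference was -1.75 ± 0.22 (moderated SE of limma, n = 2 treatments), or 3.37-fold, with a limma adjusted p = 0.0421 after Benjamini-Hochberg adjustment over all genes. ALDH1A1 was higher in HK1EBV by 1.26 with CAPE and 1.06 with DMSO, on average 1.16 ± 0.12 (moderated SE, n = 2), or 2.24-fold (limma adjusted p = 0.0333). Its HK1 values were dim, under the array median, so the size of that fold is uncertain. In neither gene did the lines overlap, but the share of all genes with the lines apart in this way was not counted, so nothing is read from it. Of the 9 genes, 2 thus passed, beside 2.90% of all genes (1.32% higher and 1.58% lower in HK1EBV). Both calls were lost in 2 alternative fits in which 0 genes passed, without the filter (limma adjusted p = 0.124 for DHRS9 and 0.119 for ALDH1A1) and without the treatment term (0.210 and 0.143). With 1 residual degree of freedom the test leans on a variance shared by all genes. The 1 residual of a gene reflects how far its response to CAPE in HK1EBV departed from its response in HK1. That departure was -0.84 for DHRS9 and 0.20 for ALDH1A1. The fit counts it as noise, so the SE and p-values do not rest on replicate arrays. It may be technical or an unlike response of the lines to CAPE, which was not tested.

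The other 7 genes did not pass in the limma fit, with adjusted p between 0.324 and 0.885. ALDH1A3 was level with CAPE, at 0.01 (HK1EBV minus HK1), and higher in HK1EBV by 0.59 with DMSO, on average by 0.30 ± 0.17 (moderated SE of limma, n = 2, adjusted p = 0.375). DHRS3 was higher in HK1EBV by 0.31 and 0.14 with CAPE and DMSO and RDH10 by 0.20 and 0.21. CRABP2 and ALDH1A2 differed by -0.01 and -0.02 with CAPE and by 0.43 and 0.32 with DMSO, at dim levels. RARB differed by 0.13 with CAPE and 0.17 with DMSO, and RARG by -0.05 and -0.02.

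**Figure D3:**
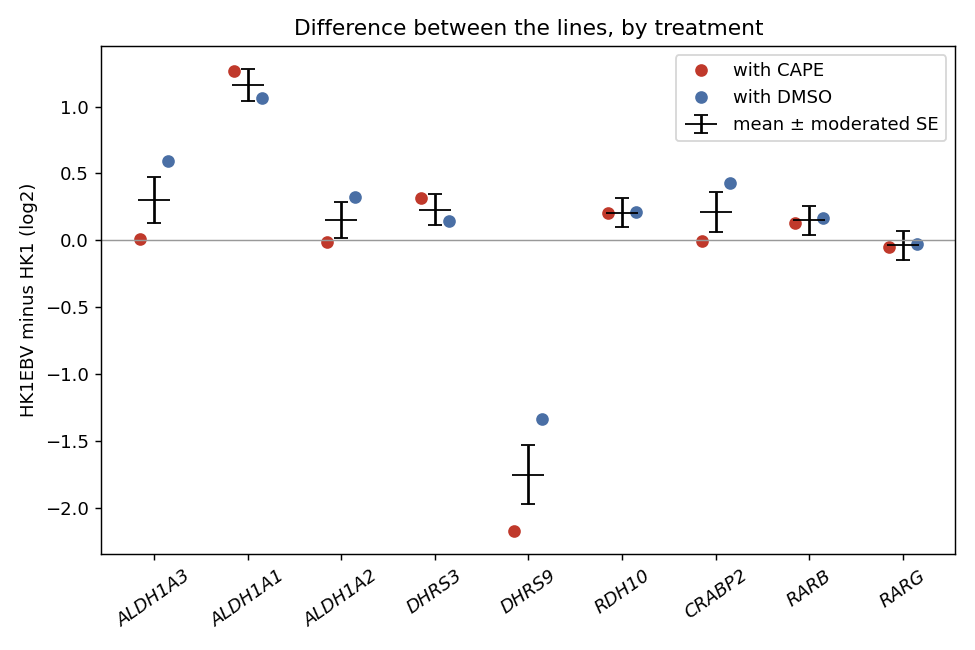
HK1EBV minus HK1 (log2) for each retinoid gene with CAPE (red) and with DMSO (blue), and the mean of both with its moderated SE from limma (black). DHRS9 lies at -2.17 and -1.33 and ALDH1A1 at 1.26 and 1.06, while the points of the other genes lie between -0.05 and 0.59.

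The wider pathway was described through lists of 78 further genes, drawn up by function with the change of ALDH1A3 known. Of these, 65 had a probe set of their own and 53 were kept by the filter. With CAPE, 2 were at least 2-fold lower and 2 at least 2-fold higher in HK1EBV, beside 0.533% and 0.691% of all genes. In HK1, 1 was lower and 3 higher, beside 0.684% and 0.671%. In the limma test between the lines, 4 of the 53 were higher in HK1EBV and 0 lower, beside 1.32% and 1.58% of all genes.

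Among the oxidoreductases, those at least 2-fold apart were 2 retinaldehyde reductases of the aldo-keto reductase family. AKR1C3, which acts on steroids, prostaglandins and retinaldehyde, had 7.22 with CAPE and 5.23 with DMSO in HK1EBV, and 5.97 and 3.93 in HK1. It was higher with CAPE by 1.99 in HK1EBV and 2.03 in HK1, and higher in HK1EBV than in HK1 by 1.25 with CAPE and 1.29 with DMSO (limma adjusted p = 0.0258), though its close paralogs make its own share uncertain. AKR1B10, an efficient retinaldehyde reductase, had 2.58 with CAPE and 2.60 with DMSO in HK1EBV. In HK1 it had 1.84 with CAPE and 0.79 with DMSO, where the DMSO array lay under the level of the filter, and it was higher there with CAPE by 1.05. RDH11 was higher by 0.36 in HK1EBV and 0.17 in HK1, and RDH8, a photoreceptor enzyme at a dim level here, differed by -0.54 and -0.27. The 10 oxidoreductases kept by the filter had medians of -0.08 in HK1EBV and 0.19 in HK1.

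The enzymes that clear retinoic acid are themselves known retinoic acid targets. CYP26A1 had 1.33 with CAPE and 1.67 with DMSO in HK1EBV, and 1.12 and 1.45 in HK1, so it differed by -0.33 in both. CYP26B1 had 2.26 with CAPE and 2.54 with DMSO in HK1EBV, and 2.30 and 2.54 in HK1, and differed by -0.27 and -0.24. CYP26C1 differed by -0.05 and -0.01. Both CAPE arrays of CYP26A1 and of CYP26B1 lay below both DMSO arrays. The share of all genes with this pattern was not counted, so nothing is read from it. CYP26A1 was under the array median throughout, and the CAPE values of CYP26B1 lay just over it.

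The list of retinoic acid target genes held 15 genes kept by the filter, 5 of them (DHRS3, CRABP2, RARB, CYP26A1 and CYP26B1) already described. Of the 10 others, 6 were lower with CAPE in both lines and 0 higher in both, beside 29.5% and 32.1% of all genes. Their medians were -0.14 in HK1EBV and -0.18 in HK1. Of the 6, 3 lay over the median of all 4 arrays. NRIP1, a nuclear receptor corepressor known to be induced by retinoic acid and by oestrogen, had 4.65 with CAPE and 5.85 with DMSO in HK1EBV, and 4.65 and 5.84 in HK1. Its differences of -1.20 and -1.19 made it the 1 gene of the list at least 2-fold lower, in both lines. HOXA2, a homeobox gene of the hindbrain, differed by -0.80 in HK1EBV and -0.37 in HK1. It was dim, under the array median on every array but that of HK1EBV with DMSO. RAI14, an actin-associated protein first found as retinoic acid induced, differed by -0.47 and -0.57. Without a test and with members of several levels, this is a count of signs, and nothing is called particular to the list.

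Retinoid X receptors, the partners of the retinoic acid receptors, differed by 0.40 at most. RXRA had 6.03 with CAPE and 6.04 with DMSO in HK1EBV, and 5.94 and 5.84 in HK1. RXRB was higher with CAPE by 0.40 in HK1EBV and 0.35 in HK1. PPARD, a fatty acid receptor that has been described as a second receptor of retinoic acid, had 5.22 with CAPE and 5.18 with DMSO in HK1EBV, and 5.82 and 4.66 in HK1. It was thus higher with CAPE by 0.04 in HK1EBV and 1.16 in HK1. Among the coactivators, NCOA2 differed by -0.48 and -0.10, NCOA1 by 0.16 and 0.05 and EP300 by -0.09 and -0.02.

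Uptake, transport and storage of retinol had 10 genes kept by the filter, with medians of 0.00 in HK1EBV and 0.02 in HK1 and 0 genes at least 2-fold apart. STRA6, the cell surface receptor for retinol on its binding protein, had 2.26 with CAPE and 2.63 with DMSO in HK1EBV, and 2.42 and 2.65 in HK1. SCARB1, a lipoprotein receptor that also takes up carotenoids, differed by -0.32 and -0.44, and DGAT1, an acyltransferase that can esterify retinol, was higher by 0.37 and 0.67. TTR, a carrier of the retinol-binding protein in blood, was dim and differed by 0.13 and 0.05.

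**Figure D4:**
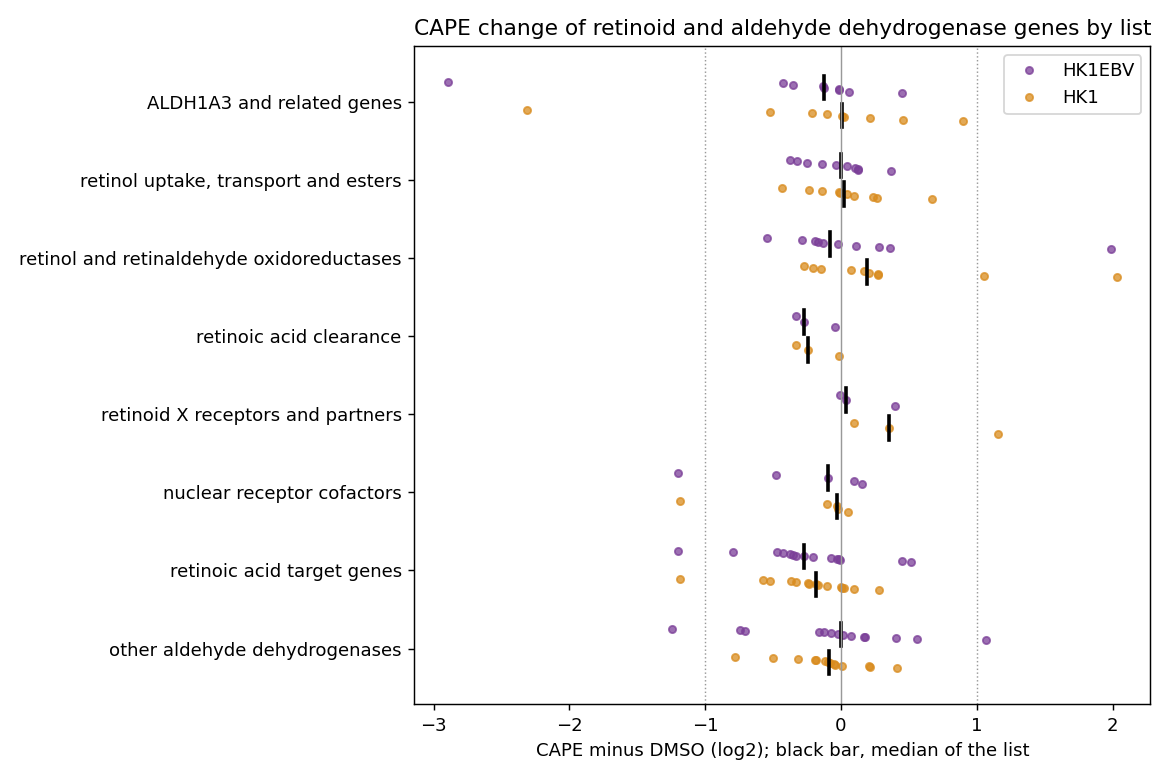
CAPE minus DMSO (log2) of each gene kept by the filter, by list, with HK1EBV in purple above HK1 in orange, black bars at the list medians and dotted lines at 2-fold. ALDH1A3 is the point at -2.90 and -2.31 in the top row, AKR1C3 the one at 1.99 and 2.03, and NRIP1, at -1.20 and -1.19, is in 2 lists.

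The rest of the aldehyde dehydrogenase family, which handles aldehydes of lipids, amino acids and alcohol, had no other gene with a CAPE difference as large as that of ALDH1A3. Of 16 listed, 14 were kept by the filter, with medians of -0.00 in HK1EBV and -0.09 in HK1. ALDH1B1, a mitochondrial relative of ALDH1A enzymes, had 4.38 with CAPE and 5.63 with DMSO in HK1EBV, and 4.76 and 5.54 in HK1. Its differences of -1.24 and -0.78 were the nearest to ALDH1A3 in the family. ALDH7A1, a lysine-pathway enzyme, differed by -0.71 and -0.50, and ALDH3A1, a cytosolic enzyme of squamous epithelia, by -0.74 and -0.19. ALDH2, the mitochondrial acetaldehyde dehydrogenase, had 4.34 with CAPE and 3.27 with DMSO in HK1EBV, and 2.22 and 1.80 in HK1, so it was higher with CAPE by 1.07 and 0.41. ALDH2 was also higher in HK1EBV than in HK1 by 1.80 ± 0.18 on average (moderated SE of limma, n = 2, adjusted p = 0.0335). Named after their values were seen, ALDH16A1 and ALDH3A2 were higher in HK1EBV by 0.79 and 0.81 on average (limma adjusted p = 0.0479 and 0.0482). The calls of AKR1C3, ALDH2, ALDH16A1 and ALDH3A2 were likewise lost in the 2 fits in which 0 genes passed.

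Across the whole array, the genes nearest to ALDH1A3 over the 4 arrays were sought by Euclidean distance between log2 values, each gene centred on its own mean. CYP1B1, a cytochrome P450 of the aryl hydrocarbon receptor pathway that can also oxidise retinol, was the nearest at a distance of 0.66, with 1.72 and 4.52 with CAPE and DMSO in HK1EBV and 1.67 and 4.74 in HK1. H1-1, a linker histone gene with similar copies, followed at 0.68 and differed with CAPE by -2.05 in HK1EBV and -2.57 in HK1. UTP20, CENPF, RRS1 and ESF1 came next at 1.12 to 1.18, with smaller differences between -1.70 and -1.31. Among the lowest CAPE differences, CYP1B1 and H1-1 ranked 1 and 2 in HK1 and 2 and 3 in HK1EBV. Since ALDH1A3 was chosen for its large fall, genes near it must have large falls too, and nothing more is read from this nearness. DHRS3 had much closer neighbours, IFT81, CSTF3, UBAP2L and PSMD12, all within 0.04. These genes were at different levels and share only the small steps between arrays.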

How the data were processed

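RNA of 4 groups of cells was measured on 4 single-colour Affymetrix arrays. The deposited values are log2 values made by the authors with RMA, per the submitters' processing notes. RMA corrects background, gives the arrays one distribution and summarises the probes of each probe set. The version of RMA, like any later shift of the scale, is not given in the sources used here. Values ran from -0.19 to 11.9.

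The platform annotation gave 1 gene symbol to 18612 of the 25800 probe sets, several to 954 and none to 6234. Names rest on the 18612, of which 18583 matched a RefSeq gene table of GRCh38.p14 by Entrez number. The probe set with the highest mean stood for a gene, which gave 18323 genes. A filter at the 25th percentile of the probe set means (0.997 on the log2 scale) kept 15194.

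Differences within 1 line or 1 treatment were taken without a test, since each group has 1 array. The difference between the lines over both treatments was tested on all kept genes by lmFit and eBayes of limma 3.58.1 under R 4.3.3 (treatment as a term, 1 residual degree of freedom, two-sided, Benjamini-Hochberg adjustment, threshold 0.05). On simulated data of this comparison, with 15194 genes, it called 97 of 100 genes changed 2-fold and 100 of 100 changed 4-fold, with 6 false calls among 203. The simulated noise was normal and independent between arrays, with no CAPE effect and no CAPE change that differed between lines. Its spread was set without the 57 genes of zero residual, which the real fit keeps. These counts therefore check the code and do not give the power or false calls on the real arrays.

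The genes, lists and tests were chosen with earlier results of these data known. Besides the retinoid genes, the text names of each list up to 4 genes with the largest mean CAPE change in either direction, the 6 genes nearest to ALDH1A3 and the 4 nearest to DHRS3 by Euclidean distance over the arrays. ALDH16A1, ALDH3A2, HMGCS1, EPCAM, KRT5, KRT14 and the markers under the filter are named outside this rule, after their values were seen. Alternatives were other filters, scalings, probe set rules, folds, variance priors and p thresholds, a fit without genes of zero residual and one without the treatment term.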

Additional observations from a re-analysis of the deposited data

Results flagged for a closer look

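Among the 43 genes named by rule from the lists, 8 differed with CAPE in opposite directions in the lines, as did 35.7% of all genes kept by the filter. Apart from the retinoid genes, the rule took genes with a large mean change over both lines. That favours the same sign in both, so the count and the share cannot be compared. The genes nearest to ALDH1A3 and DHRS3 and those named outside the rule are not among the 43. With 1 array a group the difference between the lines was not tested. The CAPE change in HK1EBV minus that in HK1 was -1.07 for AKR1B10, -0.58 for KRT19, -0.44 for CRABP2, -0.34 for ALDH1A2, -0.31 for VWF, -0.10 for RXRA, -0.10 for COL1A2 and -0.037 for RARB. One of the 2 changes was close to 0 in AKR1B10 (-0.021 in HK1EBV), RARB (-0.015 in HK1EBV), RXRA (-0.0042 in HK1EBV) and CRABP2 (0.0087 in HK1), and COL1A2 had 0.03 in HK1 and -0.07 in HK1EBV. The value of AKR1B10 rests on an HK1 DMSO level of 0.79, under the filter level of 0.997, so its size is uncertain. CRABP2, ALDH1A2, VWF, COL1A2 and RARB were under the median of all 4 arrays.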

How the results depend on the processing

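The CAPE difference of ALDH1A3 ran from -2.91 to -2.88 in HK1EBV and from -2.33 to -2.28 in HK1 over 2 other scalings. A filter cannot move a gene's own difference, and ALDH1A3 has 1 probe set. The 2 other filters and the mean of probe sets thus gave the same values by construction and check nothing. The 404 recomputed differences of the 43 genes named from the lists moved by at most 0.05, less than the pooled SD of 0.22 between the lines. Those under other filters could not move, and the mean of probe sets gave each of these genes its main value again. Only the 2 other scalings thus check these differences. The genes nearest to ALDH1A3 and DHRS3 were not recomputed. At 1.5-fold in place of 2-fold, 593 genes were higher and 552 lower in HK1EBV and 513 and 576 in HK1, and 1 retinoid gene, DHRS9, was higher in HK1. The limma count between the lines, 200 genes higher and 240 lower in HK1EBV (3503 at an unadjusted p under 0.05), was unstable. It was 0 and 0 without the filter or the treatment term, 671 and 625 with a filter at the 50th percentile, 865 and 661 with arrays shifted to one median and 666 and 658 after quantile normalization. It was 492 and 467 with a robust prior, 947 and 809 without the 57 genes of zero residual, and 743 and 647 at an adjusted p under 0.1. DHRS9 had a limma adjusted p between 0.000223 and 0.210 over 11 settings and ALDH1A1 between 0.000435 and 0.143 over 10. These settings include the main fit, and the threshold of 0.1 is that same fit again, with no p-value of its own. ALDH1A1 was too dim to be kept by the filter at the 50th percentile. Of the 7 other retinoid genes 0 passed in any fit that kept them. Why the count was unstable was not tested. Leaving out an array was not possible, as it would empty a group. The test between the lines pairs the arrays by treatment through its treatment term, and no replicate numbers exist for another pairing. Dim genes limit what a fall can show.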
